A study of Homo sapiens with 9 samples.

Results

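The 36 genes described here carry out or control the making of cholesterol and of fatty acids, together with the uptake, movement, storage and export of cholesterol. They were chosen by gene symbol, and all 36 were found among the 28514 symbols of the deposited count table. They comprised 17 genes of sterol synthesis, 5 genes that control it through the sterol regulatory element binding proteins (SREBPs), 7 genes of cholesterol handling and 7 genes of fatty acid synthesis and desaturation. RNA was measured at passage 31 in CI-huVEC, a line of vein endothelium from human umbilical cord that has been immortalized. The 9 libraries fell into 3 groups of 3. The first group was wild-type cells without treatment, lines 1, 2 and 3. The second was CCM3 -/- cells without treatment, the knockout clones 21, 22 and 23, edited in exon 3 of CCM3, which the table lists as PDCD10. The third was the same 3 CCM3 -/- clones kept on fibronectin, an adhesive protein of the extracellular matrix, at 5 µg per square centimetre for 48 h; no wild-type library on fibronectin was analysed here. Each knockout line is 1 clone, and the wild-type lines are not described as clonal, so the genotype and the growth from a single cell cannot be told apart. The labels do not say whether the wild-type libraries came from separate cultures, so the p-values measure the spread between these libraries, which may be technical.

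Cells build cholesterol from acetyl-CoA through the mevalonate pathway, which runs from acetoacetyl-CoA to farnesyl diphosphate, then to squalene, lanosterol and, by removal and movement of side groups and double bonds, to cholesterol. When sterol is scarce in the endoplasmic reticulum, the escort protein SCAP carries SREBP to the Golgi, where it is cut and released to switch on genes of sterol and fatty acid synthesis; INSIG1 and INSIG2 hold SCAP back when sterol is plentiful. When oxysterols are plentiful, liver X receptors switch on genes of export such as ABCA1 and the ubiquitin ligase MYLIP, which marks lipoprotein receptors for degradation. Endothelial cells both take up and make cholesterol, which forms the membrane domains in which caveolae arise.

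The promoters of 7 of these genes are shown as examples of their roles: an early and a late step of synthesis, a gene of SREBP control and a SREBP itself, and genes of cholesterol export, receptor breakdown and sterol movement. Each sequence is the reference from RefSeq on GRCh38.p14, 5′ to 3′ on the gene's own strand, from 250 bases before the annotated start to 50 bases after it. Capitals mark CACCCCAC, the core letters of the classical sterol regulatory element, CCAAT, the letters bound by the factor NF-Y that works beside SREBP, and CACGTG, an E-box, on either strand (a CCAAT on the other strand reads ATTGG). HMGCS1 lies at chr5:43313363-43313662 on the minus strand, TM7SF2 at chr11:65111622-65111921 on the plus strand, INSIG1 at chr7:155297628-155297927 on the plus strand, SREBF2 at chr22:41832855-41833154 on the plus strand, STARD4 at chr5:111512486-111512785 on the minus strand, ABCA1 at chr9:104928106-104928405 on the minus strand and MYLIP at chr6:16128836-16129135 on the plus strand.
HMGCS1: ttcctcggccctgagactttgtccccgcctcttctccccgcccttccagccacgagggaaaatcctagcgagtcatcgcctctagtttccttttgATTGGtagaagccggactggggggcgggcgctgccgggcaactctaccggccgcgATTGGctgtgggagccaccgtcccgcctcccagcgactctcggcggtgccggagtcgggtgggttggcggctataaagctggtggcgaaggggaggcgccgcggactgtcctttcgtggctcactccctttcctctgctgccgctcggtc
TM7SF2: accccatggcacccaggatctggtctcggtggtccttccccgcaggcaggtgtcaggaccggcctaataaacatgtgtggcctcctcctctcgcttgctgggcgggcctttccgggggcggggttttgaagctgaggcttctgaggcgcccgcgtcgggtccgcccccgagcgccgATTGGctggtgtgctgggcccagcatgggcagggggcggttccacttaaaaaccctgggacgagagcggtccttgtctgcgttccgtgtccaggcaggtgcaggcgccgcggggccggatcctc
INSIG1: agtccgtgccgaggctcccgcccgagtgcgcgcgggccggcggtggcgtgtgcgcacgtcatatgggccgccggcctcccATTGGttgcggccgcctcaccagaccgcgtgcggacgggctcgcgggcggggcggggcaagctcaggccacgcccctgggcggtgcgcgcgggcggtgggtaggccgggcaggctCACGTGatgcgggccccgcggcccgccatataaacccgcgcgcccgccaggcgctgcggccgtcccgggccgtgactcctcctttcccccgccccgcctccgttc
SREBF2: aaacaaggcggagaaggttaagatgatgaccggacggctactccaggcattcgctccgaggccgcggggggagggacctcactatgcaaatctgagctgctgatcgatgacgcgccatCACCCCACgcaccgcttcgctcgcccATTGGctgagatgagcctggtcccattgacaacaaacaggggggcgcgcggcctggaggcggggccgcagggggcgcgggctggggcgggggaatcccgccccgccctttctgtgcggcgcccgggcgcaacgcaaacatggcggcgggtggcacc
STARD4: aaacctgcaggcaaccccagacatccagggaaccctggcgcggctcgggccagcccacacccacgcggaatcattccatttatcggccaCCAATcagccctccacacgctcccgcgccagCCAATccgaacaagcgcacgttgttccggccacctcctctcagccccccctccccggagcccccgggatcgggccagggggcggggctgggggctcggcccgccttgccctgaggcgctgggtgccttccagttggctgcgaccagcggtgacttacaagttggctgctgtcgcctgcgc
ABCA1: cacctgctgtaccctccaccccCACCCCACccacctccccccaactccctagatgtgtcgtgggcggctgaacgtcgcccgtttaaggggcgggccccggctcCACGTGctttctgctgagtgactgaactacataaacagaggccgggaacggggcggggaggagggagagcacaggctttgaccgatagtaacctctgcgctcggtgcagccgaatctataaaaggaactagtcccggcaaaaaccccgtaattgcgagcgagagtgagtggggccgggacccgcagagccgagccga
MYLIP: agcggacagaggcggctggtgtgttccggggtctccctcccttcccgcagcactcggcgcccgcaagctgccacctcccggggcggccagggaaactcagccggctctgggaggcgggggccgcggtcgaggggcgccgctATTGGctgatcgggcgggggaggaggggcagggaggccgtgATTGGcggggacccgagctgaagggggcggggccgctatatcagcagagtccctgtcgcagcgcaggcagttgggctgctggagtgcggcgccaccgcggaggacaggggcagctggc

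A promoter was held for 31 of the 36 genes, and both strands were searched. The shares are given beside those in all 35116 promoters of the same length and in the 9579 promoters matched to tested genes. CCAAT stood in 18 of the 31, or 58.1%, against 34.6% of all promoters and 36.7% of those of tested genes. CACGTG stood in 4, or 12.9%, against 7.26% and 10.2%, and these were LSS, INSIG1, SCAP and ABCA1. CACCCCAC stood in 2, or 6.45%, against 2.79% and 2.44%, and these were SREBF2 and ABCA1. The longer form TCACCCCAC, which contains the shorter, stood in SREBF2 alone among the 31, against 0.43% and 0.397%. In SREBF2 the CACCCCAC match lay 132 to 125 bases before the start, with a CCAAT from 106 to 102 bases before the start. HMGCS1, MYLIP and STARD4 each held 2 CCAAT matches, and TM7SF2 held 1. A match describes letters in this window and is not a mapped binding site.

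Counts per library summed to between 24406001 and 33971610, and all 36 genes passed the filter on low counts that left 13802 genes for testing. PDCD10, the edited gene, was at 49.3 ± 3.49 CPM (counts scaled to a common library size; SD, n = 3) in wild-type cells, 38.5 ± 3.43 in the knockout clones and 36.4 ± 1.301 in the clones on fibronectin, so its transcript was lower but present. Of 8 endothelial markers all were measured, and their sum was 2240 to 2485 CPM in the wild-type lines. It was 5699 to 6103 CPM in the untreated clones and 5714 to 6708 in the clones on fibronectin. In knockout 6 of 8 were called higher and 0 lower, where 23% of all tested genes rose and 27% fell. VWF and PECAM1 were among those that rose, and CDH5 was not called. On fibronectin 6 were called higher than wild-type and 1 lower, where 29% of all tested genes rose and 29.6% fell. Epithelial markers summed to 190.03 to 198 CPM in the wild-type lines, 291 to 308 in the untreated clones and 327 to 380.2 in the clones on fibronectin, with KRT8, KRT18 and EPCAM, the 3 tested of 4, called higher. Leukocyte markers summed to at most 0.197, 2.45 and 3.52 CPM in the same order and fibroblast markers to at most 1.31, 0.838 and 0.710, with LUM at 0 counts throughout. The 3 leukocyte markers tested of 4 were called higher in both comparisons with wild-type. Their log2 fold changes ran from 2.47 to 6.60 in knockout and from 3.81 to 6.88 on fibronectin. Of the 2 fibroblast markers tested, 1 was called lower in each comparison. Markers of smooth muscle and pericytes summed to between 3.60 and 5.17 CPM over all libraries. Markers of fat cells and liver cells, which are known for making lipid, summed to at most 0.336 and 0.0766 CPM in any library, with TTR and FGB at 0. The part of the marker shifts in the results below was not tested. In bulk RNA, a change per cell and a change in the share of cells that express a gene cannot be told apart.

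The question of the first comparison was what differs in the knockout clones. Most of these genes were higher there. Of the 36, 24 rose, 3 fell and 9 were not called in edgeR's quasi-likelihood test at an adjusted p under 0.05 over all tested genes. Of all tested genes 50.1% were called, 23% upward and 27% downward. In 25 genes the 3 knockout libraries lay above all 3 wild-type libraries and in 3 they lay below, where 28.2% and 33.3% of all tested genes did so. The median log2 fold change was 0.38 over the 36 genes and -0.03 over all tested genes. By library, the median log2 ratio to the wild-type mean was 0.41, 0.42 and 0.36 in clones 21, 22 and 23, and the median of all tested genes was between -0.05 and -0.02 in the same libraries. Summed over the 36 genes, the share of a library's counts was 0.282% to 0.285% in the wild-type lines and 0.341% to 0.371% in the knockout clones. Among the genes that rose, 14 did so by at least 0.5 on the log2 scale, where 11.2% of all tested genes did, and none fell by as much, where 14.8% did.

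**Figure D1:**
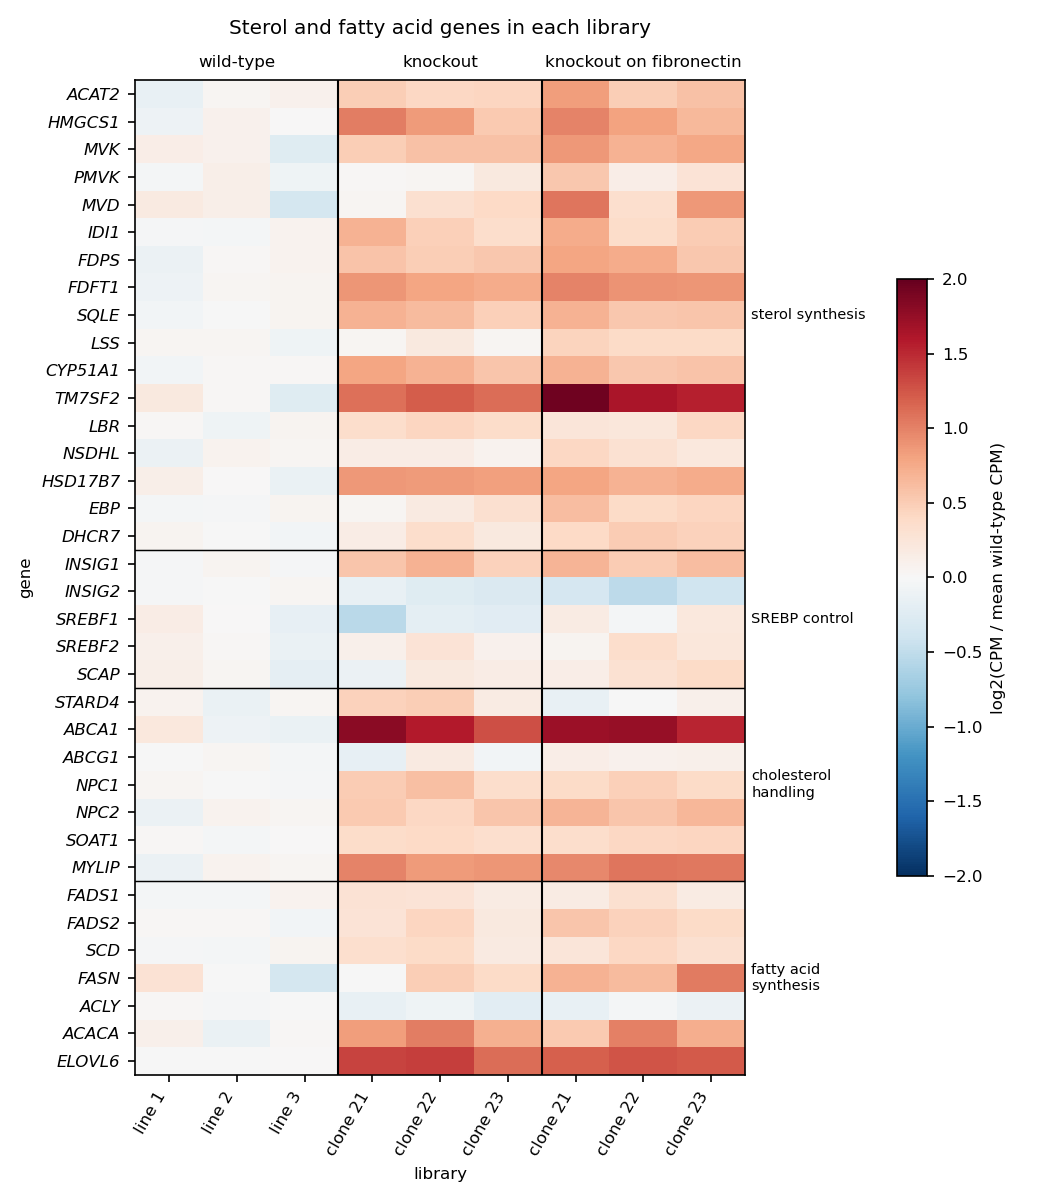
Level of each of the 36 genes (rows, by role) in each of the 9 libraries (columns, by group), as log2 of CPM over the mean wild-type CPM; red is higher and blue is lower, on a scale from -2 to 2. ABCA1, TM7SF2 and ELOVL6 stand out as the reddest rows in all 6 knockout libraries, while INSIG2 and ACLY are pale blue in them.

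Sterol synthesis rose in 12 of its 17 genes and fell in none, where 23% of all tested genes rose and 27% fell. Its median log2 fold change was 0.51. Summed over the 17 genes the level was 969.5, 1021 and 1035 CPM in wild-type lines 1, 2 and 3 and 1497, 1445 and 1394 in clones 21, 22 and 23. HMGCS1, which joins acetyl-CoA to acetoacetyl-CoA at the entry of the pathway, was at 43.9, 50.3 and 47.7 CPM in wild-type and 96.5, 85.1 and 67.7 in knockout. The groups did not overlap, clone 23 was the lowest of the clones, and the log2 fold change was 0.81 (SE 0.12, edgeR adjusted p = 0.000222). ACAT2, the thiolase that makes acetoacetyl-CoA in the cytosol, rose by 0.44 (SE 0.09), and MVK, mevalonate kinase, by 0.56 (SE 0.11). The next enzymes were not called: PMVK, phosphomevalonate kinase, differed by 0.09 (SE 0.10) and MVD, which makes isopentenyl diphosphate, by 0.26 (SE 0.19). IDI1, which isomerizes that product, rose by 0.51 (SE 0.10).

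FDPS, which makes farnesyl diphosphate, was at 239.8, 264 and 273 CPM in wild-type and 386, 362 and 377 in knockout, a log2 fold change of 0.53 (SE 0.07, adjusted p = 3.56e-05). FDFT1, squalene synthase, was at 132, 144 and 147 CPM in wild-type and 261, 243 and 236 in knockout. It rose by 0.80 (SE 0.06, adjusted p = 1.79e-07), the smallest p of the sterol synthesis genes. In both genes every clone lay well above every wild-type line. SQLE, which oxidizes squalene and is a control point of the pathway, rose by 0.60 (SE 0.07). LSS, which folds the oxidized squalene into lanosterol, was at 58.0, 58.3 and 53.4 CPM in wild-type and 57.8, 64.7 and 58.3 in knockout and was not called (adjusted p = 0.26). The enzymes on either side of LSS therefore differed from it in call; this difference between genes was not tested.

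Among the enzymes that turn lanosterol into cholesterol, TM7SF2 moved furthest. This sterol C14 reductase was at 1.29, 1.14 and 0.952 CPM in wild-type and 2.41, 2.62 and 2.45 in knockout, 2.21-fold higher, with a log2 fold change of 1.14 (SE 0.19, adjusted p = 0.00019). LBR, an inner nuclear membrane protein with the same reductase activity, rose by 0.39 (SE 0.06). CYP51A1, the lanosterol demethylase that acts before both, was at 60.6, 63.7 and 64.2 CPM in wild-type and 109, 101 and 92.3 in knockout and rose by 0.68 (SE 0.07). HSD17B7, a ketoreductase of the C4 demethylation, rose by 0.85 (SE 0.11), from 5.28, 4.91 and 4.46 CPM to 8.96, 8.78 and 8.65. Its pseudogene HSD17B7P2 had 166 counts over the 9 libraries against 1862 for the gene, so some reads may be divided between them. DHCR7, which makes the last reduction, rose by 0.23 (SE 0.07, adjusted p = 0.0124), with adjusted p from 0.00272 to 0.0763 over 13 alternatives and the call lost without clone 22. NSDHL, a C4 decarboxylase, and EBP, a sterol isomerase, differed by 0.12 (SE 0.07) and 0.18 (SE 0.08) and were not called; EBP had adjusted p from 0.0177 to 0.322 over 13 alternatives and was called in 3 of them, among them without clone 21 and without clone 21 on fibronectin.

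Of the 5 control genes 1 rose, 2 fell and 2 were not called, where 23% of all tested genes rose and 27% fell. The share that rose, 20%, was near that of all tested genes. INSIG1, which retains SCAP and is itself a target of SREBP, was at 37.3, 39.4 and 37.6 CPM in wild-type and 56.1, 61.7 and 52.2 in knockout, a log2 fold change of 0.57 (SE 0.07, adjusted p = 2.43e-05). INSIG2, its paralog with the same retaining role, was at 35.6, 36.2 and 37.2 CPM in wild-type and 32.7, 30.8 and 29.7 in knockout. Its log2 level fell by 0.23 (SE 0.07, adjusted p = 0.015), so the paralogs moved in opposite directions, with no overlap between the groups in either. SREBF1, which encodes the SREBP more tied to fatty acid synthesis, was at 31.5, 28.7 and 25.5 CPM in wild-type and 19.6, 24.9 and 24.4 in knockout and fell by 0.31 (SE 0.11, adjusted p = 0.0268). The groups of SREBF1 were close: the lowest wild-type line stood next to clone 22. SREBF2, which encodes the SREBP more tied to sterol synthesis, differed by 0.16 (SE 0.08) and SCAP by 0.09 (SE 0.10), and neither was called. The falls were small and did not hold in every alternative. Over 13 alternatives the adjusted p of INSIG2 ran from 0.0104 to 0.0668, and the call was lost without wild-type line 1, wild-type line 3, clone 22 or clone 23. That of SREBF1 ran from 0.0122 to 0.152, and the call was lost without wild-type line 1, wild-type line 2 or clone 21. SREBF2 had adjusted p from 0.0326 to 0.42 and was called in 2 alternatives, the fit of 6 libraries and the fit without clone 21 on fibronectin.

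Cholesterol handling rose in 6 of 7 genes, where 23% of all tested genes rose, with a median log2 fold change of 0.49. ABCA1, which exports cholesterol to lipid-poor apolipoproteins, was at 3.25, 2.62 and 2.56 CPM in wild-type and 9.88, 8.42 and 6.91 in knockout. It was 2.99-fold higher, a log2 fold change of 1.58 (SE 0.16, adjusted p = 1.89e-06), the largest of the 36 genes, and the lowest clone stood above the highest wild-type line. ABCG1, the exporter to high-density lipoprotein, was at 25.7, 26.6 and 25.2 CPM in wild-type and 23.04, 29.2 and 25.0 in knockout, with a log2 fold change of -0.01 (SE 0.08, adjusted p = 0.966), and its groups overlapped. MYLIP was at 12.0, 13.7 and 13.5 CPM in wild-type and 25.9, 23.5 and 24.0 in knockout, 1.87-fold higher, a log2 fold change of 0.90 (SE 0.08, adjusted p = 7.21e-07). NPC1 and NPC2, the membrane and the soluble protein that move cholesterol out of lysosomes, rose by 0.49 (SE 0.07) and 0.50 (SE 0.06). SOAT1, which esterifies cholesterol for storage, rose by 0.37 (SE 0.06). STARD4, a soluble carrier that moves sterol between membranes, was at 42.3, 36.6 and 41.3 CPM in wild-type and 55.2, 56.2 and 44.8 in knockout and rose by 0.38 (SE 0.10, adjusted p = 0.00504), with clone 23 close to the wild-type lines.

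Fatty acid synthesis rose in 5 of 7 genes and fell in 1, where 23% of all tested genes rose and 27% fell. Its median log2 fold change was 0.31. ELOVL6, which lengthens palmitate to stearate, was at 19.5, 19.6 and 19.8 CPM in wild-type and 50.3, 51.5 and 42.8 in knockout, 2.45-fold higher, with a log2 fold change of 1.29 (SE 0.08, adjusted p = 1.23e-08), the smallest p of the 36 genes. ACACA, which makes malonyl-CoA and sets the rate of synthesis, was at 118, 100.3 and 111 CPM in wild-type and 195, 224 and 180.0 in knockout and rose by 0.86 (SE 0.12, adjusted p = 0.000114). No knockout library of either gene fell within the wild-type range. SCD, FADS2 and FADS1, the desaturases, rose by 0.30 (SE 0.07), 0.31 (SE 0.07) and 0.25 (SE 0.06). FASN, the synthase that builds palmitate, was at 88.2, 72.2 and 57.1 CPM in wild-type and 71.9, 102 and 94.3 in knockout and was not called (log2 fold change 0.31, SE 0.19), with the widest wild-type spread of the 36 genes, a coefficient of variation of 21.5%. ACLY, which makes cytosolic acetyl-CoA from citrate for both pathways, was at 459, 443 and 449 CPM in wild-type and 406, 425 and 391 in knockout and fell by 0.15 (SE 0.05, adjusted p = 0.0403). Its call held in 3 of 13 alternatives, with adjusted p from 0.033 to 0.198. It was lost without any 1 of the wild-type lines, without clone 21 or 23, without clone 21 or 23 on fibronectin, with the other scaling, with no filter on low counts and in the fit of 6 libraries.

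**Figure D2:**
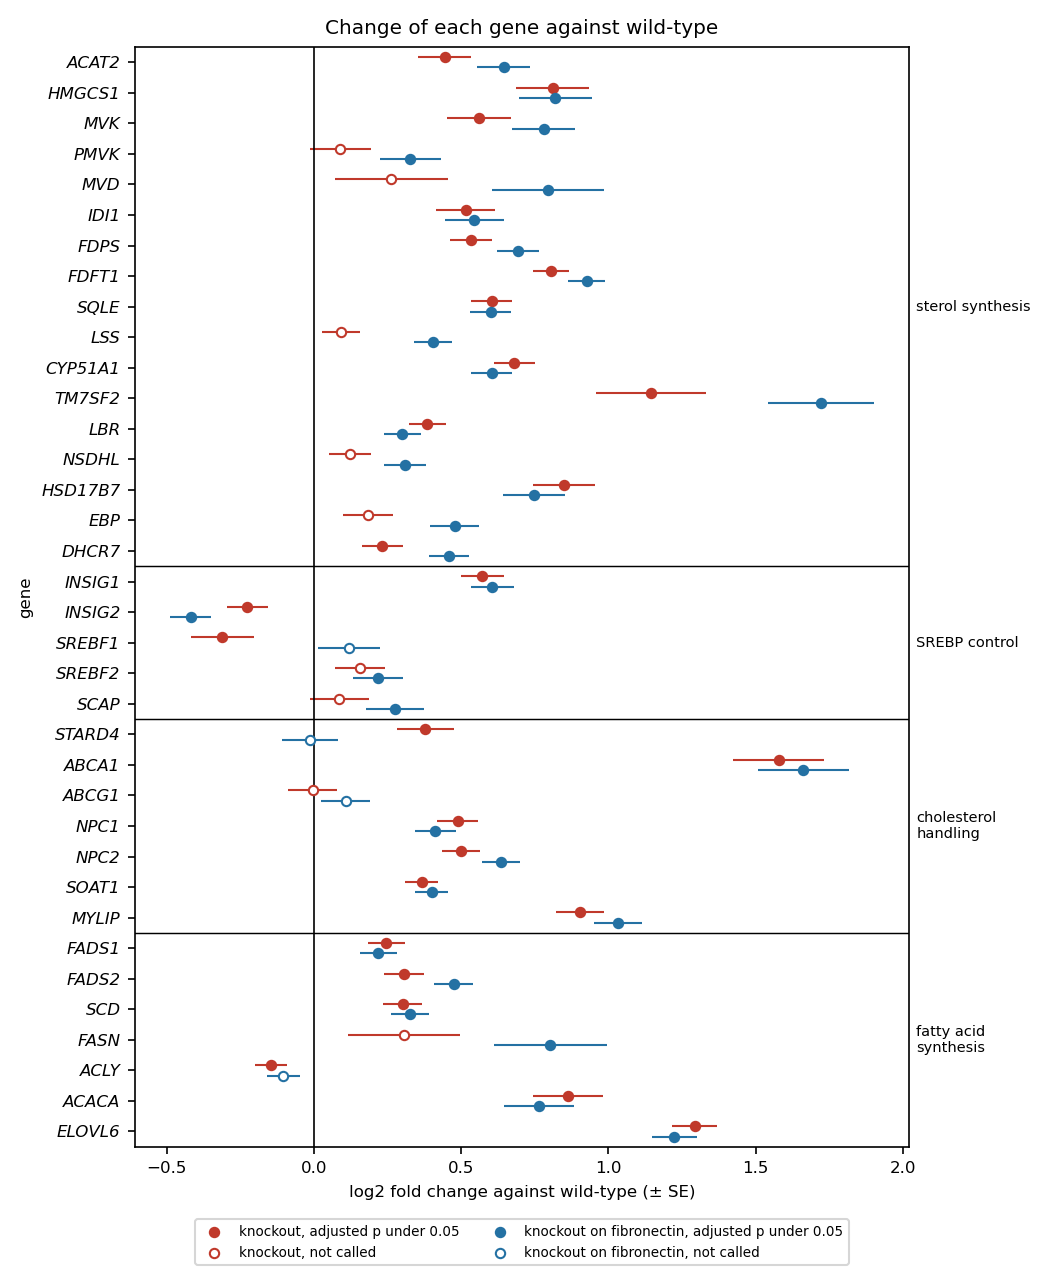
The log2 fold change of each gene against wild-type (points) with its standard error (bars), for the knockout clones in red and the same clones on fibronectin in blue; filled points have an adjusted p under 0.05 and open points do not. Most points lie right of 0, and INSIG2 and ACLY lie left of it in both comparisons. SREBF1, ACLY and STARD4 are called only without fibronectin. The 8 genes PMVK, MVD, LSS, NSDHL, EBP, SREBF2, SCAP and FASN are called only on fibronectin. The comparisons share the wild-type libraries.

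Levels between genes were compared on the deposited FPKM values, which correct for gene length. In wild-type cells FDPS stood highest at 144.0 ± 8.31 FPKM (SD, n = 3), followed by NPC2 at 97.3 ± 5.93 and ACLY at 88.3 ± 2.10. FDPS stood apart, while the lowest NPC2 library at 90.8 met the highest ACLY library at 90.7. SCD at 54.8 ± 1.34 and FDFT1 at 51.0 ± 2.55 followed, with means less far apart than the sum of their SDs. At the other end were HSD17B7 at 1.65 ± 0.155, TM7SF2 at 0.460 ± 0.0742 and ABCA1 at 0.229 ± 0.0332. ABCA1 and TM7SF2, with the 2 largest folds against wild-type on fibronectin, were thus the lowest in level in wild-type cells. The C14 reductases differed in FPKM, LBR at 23.7 ± 1.12 against TM7SF2, and remained far apart in knockout at 30.5 ± 0.784 and 1 ± 0.0470. FDPS remained first in knockout at 206 ± 6.48 FPKM, with NPC2 at 136 ± 6.38, and FDFT1 at 87.8 ± 4.79 stood above ACLY at 78.6 ± 3.47.

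**Figure D3:**
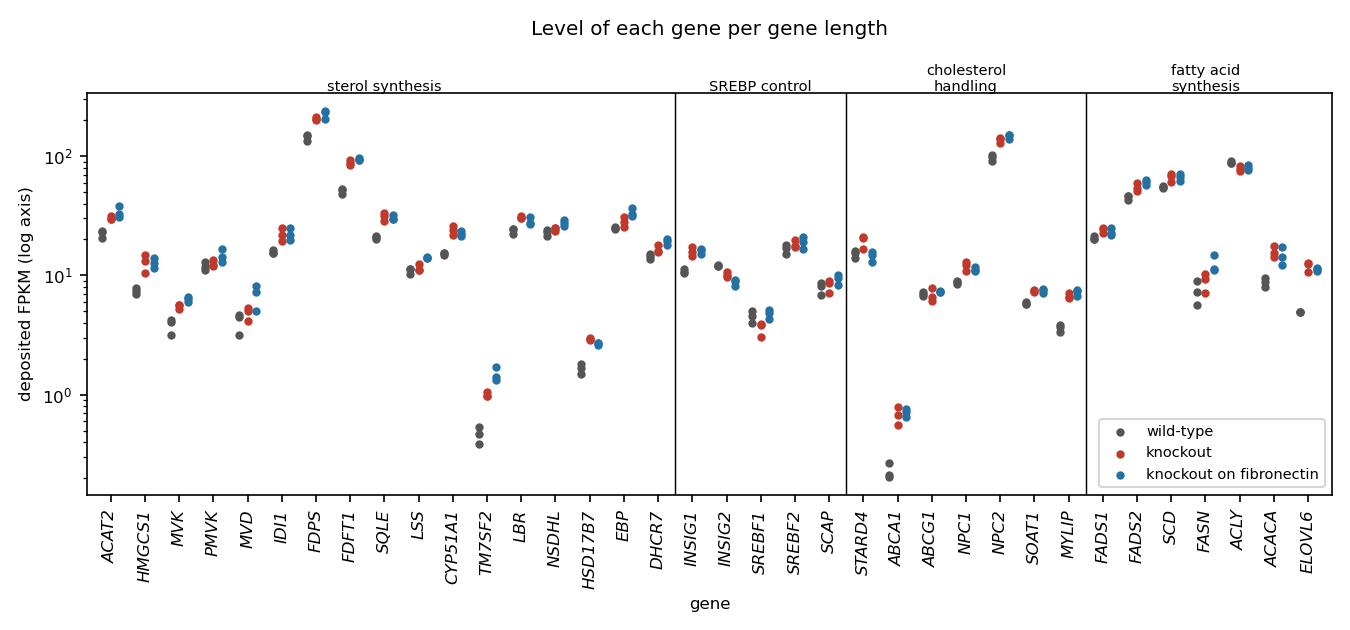
Deposited FPKM of each gene in every library on a log axis, grouped by role; points are libraries, grey for wild-type, red for knockout and blue for knockout on fibronectin. Wild-type means span from 0.229 FPKM in ABCA1 to 144.0 in FDPS.

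The second comparison set the clones on fibronectin against the same wild-type libraries, so it shares its controls with the first. On fibronectin 31 of the 36 genes were higher than wild-type, 1 was lower and 4 were not called, where 58.7% of all tested genes were called, 29% upward and 29.6% downward. The median log2 fold change was 0.51 over the 36 genes and 0.01 over all tested genes. In 31 genes all 3 libraries lay above wild-type and in 2 below, where 31.6% and 32.7% of all tested genes did so. With an added log2 fold change of at least 0.5 there were 18 higher and 0 lower, where 14.3% and 16.4% of all tested genes passed. All 17 sterol synthesis genes were called higher, with a median of 0.60, and their summed level was 1659, 1524 and 1495 CPM in clones 21, 22 and 23. Of the control genes 3 rose and 1 fell, of cholesterol handling 5 of 7 rose, and of fatty acid synthesis 6 of 7 rose. The 4 genes not called were SREBF1, STARD4, ABCG1 and ACLY.

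Called higher here and not in the first comparison were PMVK, MVD, LSS, NSDHL, EBP, SREBF2, SCAP and FASN. Another 23 genes were called higher in both. This comparison changes genotype and coating together, and a call in only 1 of the comparisons is not a tested difference between them. TM7SF2 was at 4.35, 3.52 and 3.31 CPM on fibronectin, 3.30-fold above wild-type, a log2 fold change of 1.72 (SE 0.18, adjusted p = 2.73e-06). LSS was at 77.2, 73.8 and 73.6 CPM, above every other library, and 0.40 above wild-type on the log2 scale (SE 0.06, adjusted p = 0.000134). MVD was at 23.5, 14.1 and 20.5 CPM against 12.7, 12.1 and 8.83 in wild-type, a log2 fold change of 0.79 (SE 0.19, adjusted p = 0.00406), with clone 22 close to the wild-type lines. FASN was at 118, 112 and 149 CPM, a log2 fold change of 0.80 (SE 0.19, adjusted p = 0.00674). Each of these 4 genes had all 3 fibronectin libraries above all wild-type libraries. ABCA1 at 9.17, 9.43 and 8.11 CPM, ELOVL6 at 44.8, 47.1 and 45.8 and MYLIP at 25.5, 27.6 and 27.3 gave log2 fold changes of 1.66, 1.22 and 1.03. INSIG2 was at 28.8, 25.3 and 27.5 CPM, 0.42 below wild-type on the log2 scale (log2 fold change -0.42, SE 0.07, adjusted p = 0.000188). Its level was below that of every wild-type and every untreated knockout library. The calls of PMVK, SCAP and SREBF2 were weak. Over 13 alternatives the adjusted p of PMVK (log2 fold change 0.33, SE 0.10) ran from 0.00398 to 0.0596, and the call was lost without wild-type line 3 or clone 21 on fibronectin. That of SCAP (0.28, SE 0.10) ran from 0.00716 to 0.128 and that of SREBF2 (0.22, SE 0.08) from 0.00312 to 0.164. Both were lost without wild-type line 2 or 3 and without clone 22 or 23 on fibronectin, and the groups of SREBF2 overlapped.

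The third comparison asked what fibronectin changed within the knockout clones. None of the 36 genes was called in edgeR's fit over all 9 libraries, where 0.00725% of all tested genes, a single gene, were called. At an unadjusted p under 0.05 there were 14 of the 36, against 22.3% of all tested genes, and DESeq2 called 3 up and 1 down, where it called 9.28% of the genes it tested. The median log2 difference was 0.10 over the 36 genes and 0.01 over all tested genes, and 0.19 in sterol synthesis. In 9 genes the fibronectin libraries lay above all untreated knockout libraries and in 3 below, where 14.8% and 10.6% of all tested genes did so.

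The labels give the same 3 clones with and without fibronectin, so the libraries are paired. With the clone as a block, in the 6 libraries of those groups, 4 genes rose and 1 fell, 13.9% of the 36, where 6.78% of 13257 tested genes were called, 4.97% upward and 1.81% downward. The log2 level of STARD4 fell by 0.41 (SE 0.09, adjusted p = 0.0212). Its levels went from 55.2, 56.2 and 44.8 CPM to 36.2, 39.97 and 42.8 in clones 21, 22 and 23, back within or below the wild-type range of 36.6 to 42.3 in clones 21 and 22, while clone 23 changed little. SREBF1, which was below wild-type in the untreated clones, rose by 0.41 (SE 0.09, adjusted p = 0.0195), from 19.6, 24.9 and 24.4 CPM to 32.0, 27.9 and 33.0. FASN rose by 0.48 (SE 0.09, adjusted p = 0.0188), by 0.71, 0.13 and 0.66 within the clones. TM7SF2 rose by 0.55 (SE 0.16, adjusted p = 0.0437) and LSS by 0.29 (SE 0.07, adjusted p = 0.0237). All 5 genes moved the same way in 3 of 3 clones, and clone 21 moved furthest in each of them. The fit that called them favours genes that move alike in the clones, so the shared direction adds no support. MVD moved by 1.04, 0.01 and 0.47 within clones 21, 22 and 23 and was not called (adjusted p = 0.0768).

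Without the block the adjusted p was 0.0972 for LSS, SREBF1 and STARD4, 0.0982 for TM7SF2 and 0.18 for FASN. DESeq2 called EBP, LSS and SREBF1 up and STARD4 down, and gave TM7SF2 no adjusted p. In the fit without clone 22 on fibronectin, MVD, LSS and SREBF1 were called up. Over 14 alternatives the adjusted p ran from 0.007 to 0.375 for LSS, from 0.0177 to 0.375 for SREBF1, from 0.00975 to 0.375 for STARD4, from 0.0188 to 0.454 for FASN and from 0.0421 to 0.379 for EBP. It ran from 0.0407 to 0.425 for MVD and, over 13, from 0.0437 to 0.375 for TM7SF2. Of the 4 genes with the largest log2 fold changes against wild-type in the untreated clones, the difference on fibronectin in the fit over 9 libraries was 0.08 (SE 0.14) in ABCA1, -0.07 (SE 0.07) in ELOVL6, 0.58 (SE 0.16) in TM7SF2 and 0.13 (SE 0.08) in MYLIP.

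**Figure D4:**
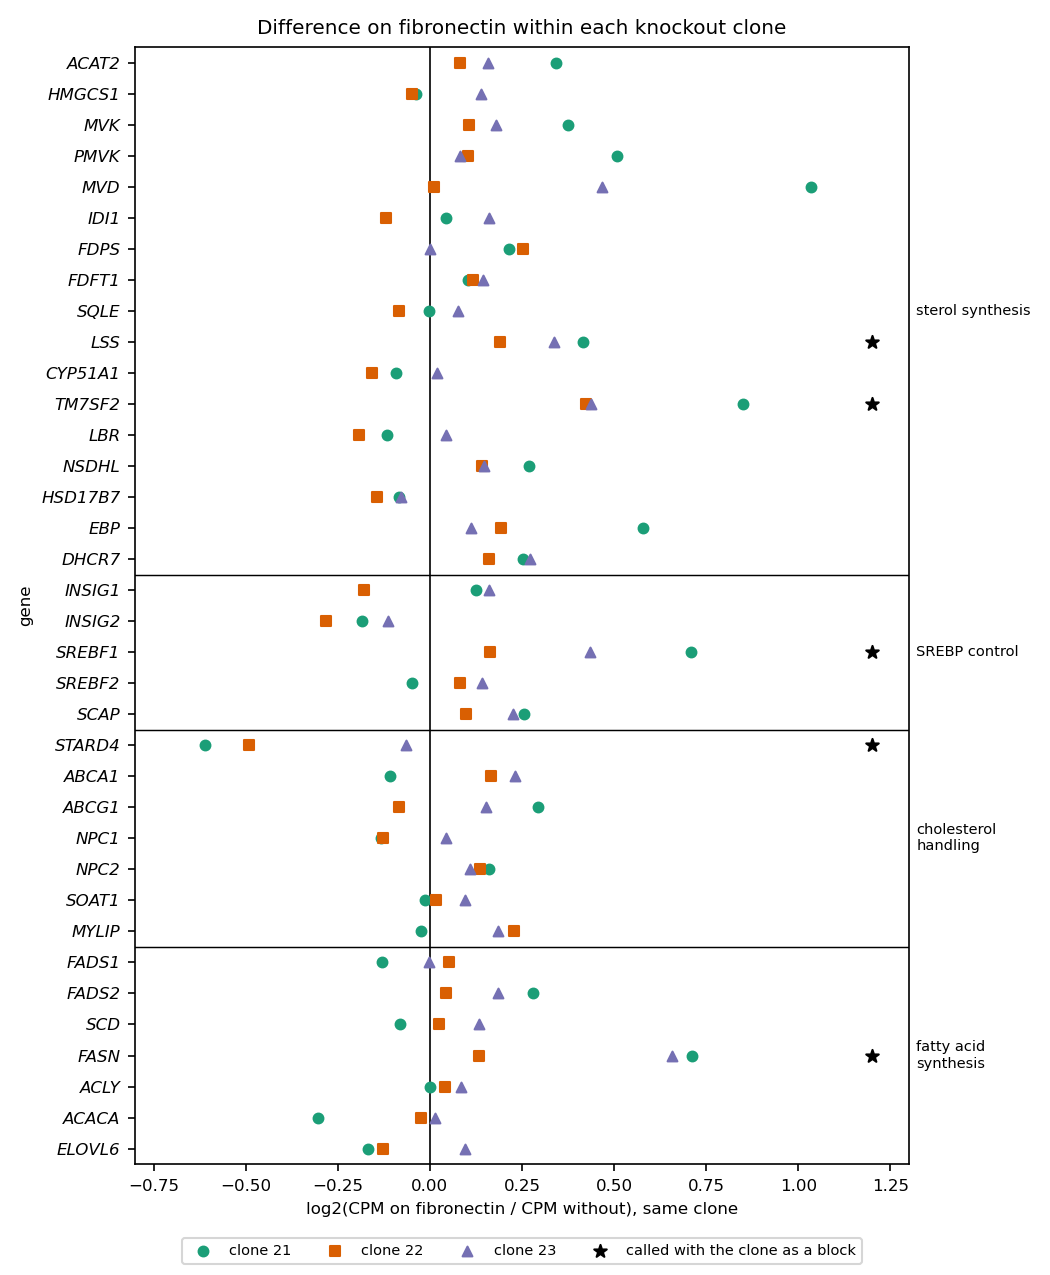
The log2 ratio of CPM on fibronectin to CPM without it, within each knockout clone (circle for clone 21, square for 22, triangle for 23); a star at the right edge marks the 5 genes called with the clone as a block and carries no value. In MVD, TM7SF2 and STARD4, among others, clone 21 lies further from 0 than clones 22 and 23, at 1.04, 0.85 and -0.61.

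The ranks of the libraries within a group were uneven in all 3 groups, and no test of them was made. Of the 36 genes, wild-type line 1 was the highest of its group in 15 and line 3 the lowest in 15. Clone 22 was the highest of the 3 clones in 19 and clone 23 the lowest in 20 without fibronectin, and clone 21 was the highest in 20 on fibronectin. The median coefficient of variation over the 36 genes was 6.22% among the wild-type lines, 7.48% among the untreated clones and 6.48% among the clones on fibronectin. ELOVL6 was the steadiest gene in wild-type at 0.904%, and MVD the most variable on fibronectin at 24.8%.

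Other genes of the same pathways were taken from 5 lists of known function. Their counts stand beside 23% of all tested genes up and 27% down in knockout, and 29% up and 29.6% down on fibronectin. Of 8 other sterol synthesis genes 7 were tested, with 4 up, 0 down and 3 not called in knockout and 4 up, 1 down and 2 not called on fibronectin, and median log2 fold changes of 0.22 and 0.24. MSMO1, the C4 methyl oxidase, rose by 0.79 (SE 0.10) in knockout and 0.78 (SE 0.10) on fibronectin, and ACAT1, the mitochondrial thiolase, by 0.31 and 0.35. C14orf1, an older symbol for a scaffold of the C4 demethylation enzymes, rose by 0.57 and 0.62. Of 10 other genes of SREBP and liver X receptor control, 5 rose and 3 fell in knockout, and 4 rose and 3 fell on fibronectin, with medians of 0.12 and 0.11; the share that fell was near that of all tested genes. NR1H3, which encodes liver X receptor alpha, rose by 1.28 (SE 0.20) and 1.59 (SE 0.20), and PAQR3, a Golgi anchor of SCAP, fell with log2 fold changes of -0.69 and -0.90 (SE 0.07 each).

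Of 16 tested genes of cholesterol uptake, transport and storage outside the 36, 4 rose and 4 fell in knockout, where 23% of all tested genes rose and 27% fell, and 4 rose and 7 fell on fibronectin, where 29% rose and 29.6% fell. The medians were -0.12 and -0.05, and the shares in knockout were near those of all tested genes. CAV1, the caveolin that binds cholesterol in caveolae, rose by 1.11 and 0.9996 (SE 0.06 each), and SCARB1, a receptor for high-density lipoprotein, by 0.38 and 0.64. GRAMD1B, which carries cholesterol from the plasma membrane to the endoplasmic reticulum, fell, with log2 fold changes of -3.02 and -2.96 (SE 0.27 each). Of 19 other genes of fatty acid synthesis, elongation and activation, 4 rose and 6 fell in knockout, and 6 rose and 8 fell on fibronectin, with medians of -0.05 and -0.01. The shares that rose were near those of all tested genes in both comparisons. ACSL5 and ACSL1, which activate long-chain fatty acids, moved in opposite directions, ACSL5 by 2.62 and 2.67 (SE 0.16 each) and ACSL1 by -0.90 and -0.94 (SE 0.07 each). HSD17B12, a ketoreductase of elongation, rose by 0.77 and 0.72.

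Of 17 tested genes of fatty acid uptake and oxidation, 3 rose and 9 fell in knockout, where 23% of all tested genes rose and 27% fell, and 4 rose and 7 fell on fibronectin, where 29% rose and 29.6% fell. The medians were -0.15 and -0.09. PDK4, a kinase that shuts off pyruvate oxidation, rose by 2.91 and 2.85 (SE 0.12 each), and PPARD, a nuclear receptor that drives fatty acid oxidation, fell, with log2 fold changes of -1.11 and -0.96. PPARG, a nuclear receptor of fat storage, had 78, 102 and 103 counts in wild-type lines, 0, 0 and 1 in the knockout clones and 0 in all 3 libraries on fibronectin. The scaled ratio of wild-type to knockout was 270.5 with a 95% exact counting interval of 48.2 to 10720.1. On fibronectin PPARG was at least 92.7-fold lower, taking a floor of 3 counts over the group; the interval and the floor cover counting error only. No gene of these 5 lists was called between the clones with and without fibronectin in edgeR's fit over 9 libraries. That fit does not pair the clones and called only 0.00725% of all tested genes, so the absence of calls says little. Results of these lists with the clone as a block are not given here. At an unadjusted p under 0.05 there were 2 of 7, 4 of 10, 5 of 16, 4 of 19 and 3 of 17 in the order above, against 22.3% of all tested genes.

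The authors' deposited table of knockout against wild-type gave 26 of the 36 genes as higher and 1 as lower at an adjusted p under 0.05. Their deposited table for the clones on fibronectin against wild-type gave 30 higher and 1 lower. The share of all genes called in the authors' deposited tables was not computed, so these counts have no share to stand beside. In the authors' deposited table for the effect of fibronectin, LSS was higher (log2 fold change 0.27, adjusted p = 0.0401) and STARD4 lower (-0.34, adjusted p = 0.0454). Against the authors' deposited table, EBP and SREBF2 were called there and not in the fit here, and INSIG2 and ACLY the other way, in knockout against wild-type.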

How the data were processed

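Libraries were stranded and from mRNA (Illumina TruSeq), per the labels' protocols. The authors deposited raw counts and FPKM values per gene symbol. The submitters' processing notes name STAR, HTSeq and the hg19 (GRCh37) build; their versions and whether counting used strand are not given in the sources used here, so overlapping and antisense genes are uncertain. The authors also deposited comparison tables with log2 fold changes and adjusted p-values, used only as the authors' own values.

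Counts were tested with edgeR 4.0.16 in R 4.3.3 (quasi-likelihood F test, robust, TMM scaling, filterByExpr with a minimum count of 10 and total of 15, 1 fit over 9 libraries grouped by label). Adjusted p-values are Benjamini-Hochberg over 13802 genes, and a call needs an adjusted p under 0.05. Standard errors come from that fit, and those given with the clone as a block come from the fit with that block. Each is the absolute estimated log2 fold change divided by the square root of the F statistic. CPM values use the TMM-scaled totals, and log2 ratios per library are ratios of them. The scripts were tested on simulated data.

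Alternatives were DESeq2 1.42.0, its size-factor scaling (RLE) in edgeR, no filter, the 6 libraries of a comparison, an added log2 fold change of at least 0.5, each library left out, and the clone as a block. Clones pair the libraries by label: deviations from group means correlated at r = 0.32, 0.44 and 0.51 within clones over 10205 genes of at least 5 CPM. Depth is given with the results.

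The members and lists were chosen with earlier results of these data known. All 36 members are named; of each other list, the 3 with the smallest p in each comparison with wild-type, of which 1 gene is not reported here. GRCh38.p14 served only for promoters. No column of per-sample values was left without a sample.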

Additional observations from a re-analysis of the deposited data

How the results depend on the processing

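Of the 27 genes called in knockout against wild-type, 23 kept their call in all 13 alternatives that refit the model, which leave out the added log2 fold change of at least 0.5; DHCR7, INSIG2, SREBF1 and ACLY lost it in at least 1. Of the 32 called on fibronectin against wild-type, 29 kept it in the same 13, and PMVK, SREBF2 and SCAP did not. No called gene changed sign in them. With an added log2 fold change of at least 0.5, 14 rose and 0 fell in knockout and 18 rose and 0 fell on fibronectin, since smaller changes no longer count. Leaving out 1 library at a time gave 23 to 26 up and 0 to 3 down in knockout, and 28 to 31 up and 1 down throughout on fibronectin. For the clones with against without fibronectin it gave 0 to 3 up and 0 down. That comparison depended most on the model. With no filter edgeR gave 3 up and 1 down. DESeq2 gave 3 up and 1 down, where it called 9.28% of the genes it tested. The clone as a replicate block gave 4 up and 1 down, where 6.78% of tested genes were called. The share over all tested genes was not computed with no filter or with 1 library left out. The cause of the dependence on the model was not tested. TM7SF2 and ABCA1, at a few CPM in wild-type, carry the largest relative counting error of the 36 genes.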
